A study of Mus musculus with 7 samples.

Results

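Whole transcriptome RNA sequencing data of mouse T-cells were examined for 10 regulators of DNA methylation and Polycomb repression, namely Dnmt1, Dnmt3a, Dnmt3b, Tet1, Tet2, Tet3, Ezh1, Ezh2, Uhrf1 and Asxl1. These genes were picked by name from the 25033 genes listed in each library. T-cells of 4 ORP4L KI mice were set against those of 3 wild-type (WT) littermates. Each library came from 1 mouse, and all 7 mice were C57BL/6J animals of 15 months. ORP4L KI mice hold the human ORP4L coding sequence in the Rosa26 locus, behind a stop cassette that Cre recombinase removes, and Cre is driven by the Lck promoter, which is active in the T-cell lineage. ORP4L binds oxysterols and is encoded in the mouse by Osbp2. The ORP4L KI mice were sampled when moribund and the WT mice at the same age, so illness and genotype cannot be told apart in these libraries. The cells came from blood mononuclear cells or spleen, and the source of each library and the exact alleles of the WT littermates are not given in the sources used here.

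DNA methylation is copied onto the new strand at each cell division by Dnmt1, which Uhrf1 brings to DNA methylated on the old strand only, while Dnmt3a and Dnmt3b place new methyl groups. Tet1, Tet2 and Tet3 oxidize methylcytosine, the first step of its removal. Ezh1 and Ezh2 are the alternative catalytic subunits of Polycomb repressive complex PRC2, which methylates histone H3 on lysine K27, and Asxl1 is the partner of Bap1 in PR-DUB, the complex that takes ubiquitin off histone H2A. DNMT3A, TET2, ASXL1 and EZH2 are well known as genes mutated in human blood cancers. Expression alone, which is measured here, does not report methylation levels or mutations.

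The total read count per library was 12918187 to 15912921 in WT and 16757959 to 19665679 in ORP4L KI. Osbp2 had 0, 0 and 1 reads in the WT libraries and 188, 742, 155 and 443 reads in the ORP4L KI libraries. Reads of the introduced human sequence and of mouse Osbp2 cannot be told apart here. All 14 T-cell markers had at least 1280 reads in every library, and their summed level was 3091 to 4112 CPM in WT, 3920 to 5137 CPM in ORP4L KI replicates 2 to 4 and 1923 CPM in ORP4L KI replicate 1. The methods name a kit for naive CD4+ T-cells, yet Cd8a had 79.6 to 226.3 CPM beside 93.4 to 414.5 CPM of Cd4 over the 7 libraries. CPM are read counts scaled to library size, here after TMM scaling, edgeR's correction for library composition. Granulocyte markers summed to 2315 to 5368 CPM in WT and to 10175 to 142547 CPM in ORP4L KI, highest in replicate 1. Of these 14 markers, 13 were higher at a raw p under 0.01 with a log2 fold change above 1, against 2.38% of all genes. The remaining marker, Csf3r, had a lower estimate (log2 fold change -0.99). In edgeR's quasi-likelihood test, which gave these p, 0 of the 14 had an adjusted p under 0.05. Dendritic cell markers summed to 556.7 to 926.7 CPM in WT and 213.6 to 319.5 CPM in ORP4L KI, and erythroid markers to 9901 to 18579 CPM and 1160 to 8631 CPM. Estimates in ORP4L KI were also lower for 11 of 12 monocyte and macrophage, 7 of 8 NK cell and 10 of 10 B-cell markers. On that side, the groups did not overlap for 4, 4 and 0 of them, against 13.8% of all tested genes on either side. Going the other way without overlap were the monocyte marker Ly6c2 (log2 fold change 1.27) and the NK cell marker Eomes (1.59). No marker of any list was at 0 in a library. In such bulk samples, fewer cells of a type and less RNA per cell cannot be told apart, and the part of other cell types in the values below was not tested.

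All 10 regulators were detected in every library, and all passed the filter on low counts that left 13462 genes to test. Levels of different genes are compared as RPKM, which the authors computed from the reads of a gene, the length of its longest transcript and the size of the library. Averaged over the 7 libraries, Asxl1 was highest at 21.7 ± 6.94 RPKM (SD, n = 7), followed by Ezh2 at 19.0, Dnmt1 at 16.4, Uhrf1 at 13.7, Ezh1 at 11.5, Tet2 at 7.53, Dnmt3a at 6.71, Tet3 at 5.97, Dnmt3b at 1.79 and Tet1 at 0.217. The order of neighbours held in all 7 libraries for Ezh1 over Tet2, for Tet3 over Dnmt3b and for Dnmt3b over Tet1. Asxl1 exceeded Ezh2 in 4 of 7 libraries, and the remaining neighbours kept their order in 5 or 6 of 7, so these places in the order lie within the spread between mice. Tet1, the TET enzyme best known from embryonic stem cells, was thus the least expressed regulator, with Tet2 at 23.1 to 62.7 times its RPKM.

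The promoters of the replication-linked regulators were read first, since E2F factors switch on many genes at the start of S phase, when DNA is copied. RefSeq sequences (GRCm38.p6, the NCBI name of mm10, the build in the submitters' processing notes) from 250 bases before to 50 bases after each annotated start gave 15 windows for the 10 regulators. Each window was searched on both strands for the E2F words TTTGGCGC, TTTCGCGC, TTTCCCGC and TTTGCCGC. They were found in 3 of 15 windows, 1 each of Dnmt1, Ezh2 and Uhrf1, against 744 of all 32851 promoters of this length (2.26%) and 704 of 27025 genes (2.6%). The 3 windows are shown because these are the regulators compared with S-phase genes below. Capitals mark the E2F words, and all are written 5′ to 3′ on the strand of the gene.
Dnmt1: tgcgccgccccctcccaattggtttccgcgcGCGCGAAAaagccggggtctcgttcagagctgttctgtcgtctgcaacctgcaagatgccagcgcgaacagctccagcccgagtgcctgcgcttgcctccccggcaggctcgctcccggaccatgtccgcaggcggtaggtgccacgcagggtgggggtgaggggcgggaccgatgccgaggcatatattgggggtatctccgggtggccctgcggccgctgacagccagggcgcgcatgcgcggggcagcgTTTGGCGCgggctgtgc
Ezh2: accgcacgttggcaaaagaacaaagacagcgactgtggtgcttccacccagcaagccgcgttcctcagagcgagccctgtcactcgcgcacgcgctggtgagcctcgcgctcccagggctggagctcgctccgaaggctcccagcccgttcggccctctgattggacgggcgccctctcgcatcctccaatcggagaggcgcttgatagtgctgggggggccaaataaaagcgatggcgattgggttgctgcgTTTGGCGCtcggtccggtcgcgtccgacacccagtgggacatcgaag
Uhrf1: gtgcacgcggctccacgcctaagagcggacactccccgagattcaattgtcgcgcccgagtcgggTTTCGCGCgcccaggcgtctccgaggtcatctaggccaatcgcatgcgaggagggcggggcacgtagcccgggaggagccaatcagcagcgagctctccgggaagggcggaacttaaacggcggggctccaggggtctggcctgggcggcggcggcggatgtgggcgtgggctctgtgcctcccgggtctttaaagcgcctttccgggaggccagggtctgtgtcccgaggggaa
The Dnmt1 window lies at chr9:20952574-20952873 on the minus strand, within the annotated gene (chr9:20907206-20959888), at the last of its 3 annotated starts. It holds TTTCGCGC on the opposite strand, 219 bases before the start, and TTTGGCGC at base 34 after it. The Ezh2 window (chr6:47594981-47595280, minus strand) belongs to the gene at chr6:47530274-47595270 and holds TTTGGCGC at base 4 after the start. Its annotated start lies inside the gene and not at its outer end. The Uhrf1 window (chr17:56304063-56304362, plus strand, at the second start of the gene at chr17:56303337-56323486) holds TTTCGCGC 185 bases before the start. The windows held 33, 31 and 33 CpG, in this order, against a median of 7 over all promoters. The windows of the regulators without an E2F word held 2 to 57 CpG, so a high CpG count was not particular to the windows shown. Each E2F word itself holds a CpG, and the share of E2F words among promoters equally rich in CpG was not examined. A match of letters is a description and not a measured binding site.

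None of the 10 regulators passed the test between genotypes. At a Benjamini-Hochberg adjusted p under 0.05, edgeR's quasi-likelihood test called 0 of 10, where it called 0.0223% of the 13462 genes. By a second rule, a raw p under 0.01 together with a log2 fold change beyond 1 or -1 (termed p and fold here), it again called 0 of 10, against 4.68% of all genes (2.38% higher and 2.3% lower). At an unadjusted p under 0.05 it named 0 regulators and 1845 of all genes. DESeq2's Wald test and edgeR's likelihood ratio test named 1 regulator at that level, Uhrf1, and limma-voom named 0. None of the 3 called a regulator after adjustment. Among the other settings described below, Uhrf1 also reached that level without a filter and with the replicate block. It did so without WT replicate 1 and without ORP4L KI replicate 2 or 4 as well. Dnmt3a reached it only without ORP4L KI replicate 2. The groups overlapped for all 10 regulators, whereas they did not overlap for 13.8% of all genes. The estimate was higher in ORP4L KI for 4 regulators and lower for 6, with a median log2 fold change of -0.26 against 0.01 over all genes, and scaling by total counts turned the higher estimates of Dnmt1, Ezh2 and Asxl1 into lower ones. All 10 of the 95% intervals include 0, and 5 of them also include a log2 fold change of 1 or -1, so for Dnmt3a, Tet1, Tet2, Tet3 and Uhrf1 a 2-fold difference lies inside the interval.

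**Figure D1:**
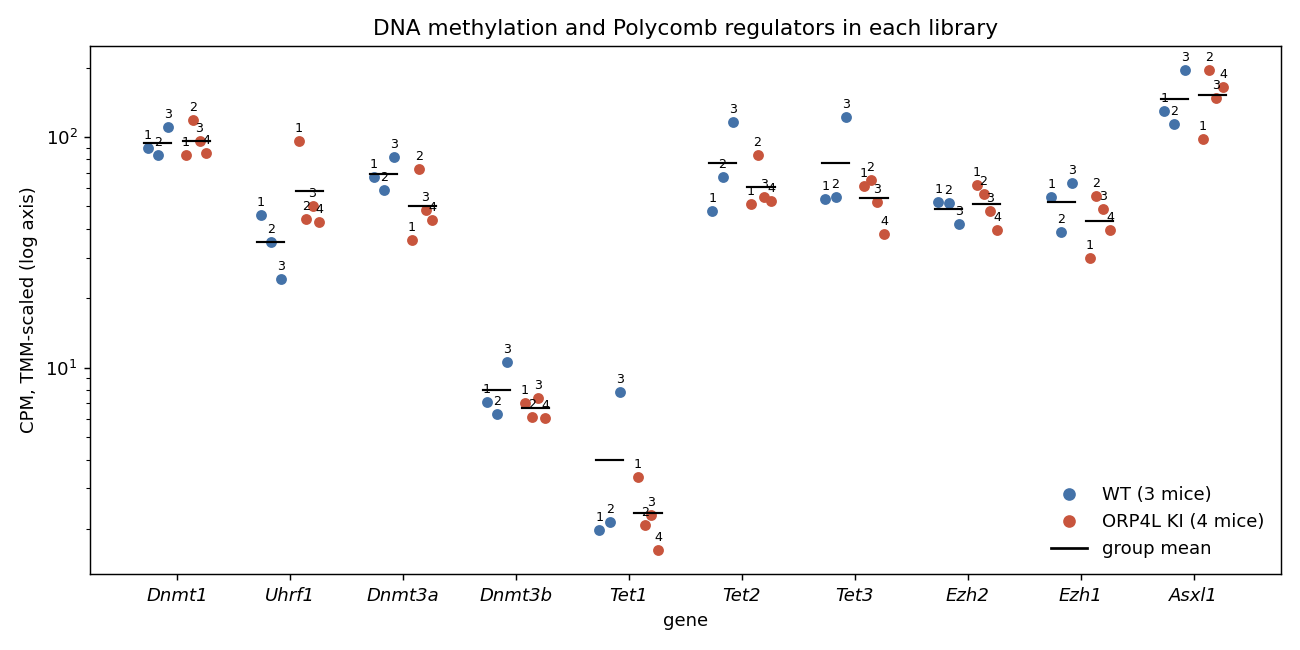
CPM of each regulator (log axis) in the 3 WT and 4 ORP4L KI libraries, with each point numbered by replicate and a black line at the group mean. The groups overlap for all 10 genes, WT replicate 3 stands highest for the 3 TET genes, and ORP4L KI replicate 1 stands highest for Uhrf1.

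Among the maintenance factors, Dnmt1 gave an estimate near 0. It had 89.4, 83.6 and 110.9 CPM in WT replicates 1 to 3, and 83.8, 119.0, 96.4 and 85.7 CPM in ORP4L KI replicates 1 to 4. Its highest library was an ORP4L KI one and its lowest a WT one, and 3 of 4 ORP4L KI values lay within the WT range. The log2 fold change was 0.02 (standard error, SE, 0.20, 95% interval -0.43 to 0.48, quasi-likelihood adjusted p = 0.977 in edgeR), an interval of 0.743 to 1.39-fold.

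Uhrf1 had the smallest adjusted p of the 10. It had 45.9, 35.2 and 24.3 CPM in WT, and 95.7, 44.1, 50.03 and 42.9 CPM in ORP4L KI. ORP4L KI replicate 1 stood far above its own group's other libraries, replicates 2 and 4 were below WT replicate 1, and WT replicate 3 was the lowest of all 7. The log2 fold change was 0.73 (SE 0.34, interval -0.03 to 1.49, quasi-likelihood adjusted p = 0.392 in edgeR). Without ORP4L KI replicate 1, the library with the most granulocyte marker and the fewest T-cell marker reads, it was 0.38 (adjusted p = 0.556 by edgeR). The RPKM ratio of Dnmt1 to its partner Uhrf1 was 1.14, 1.38 and 2.66 in WT and 0.511, 1.57, 1.12 and 1.16 in ORP4L KI. It was highest in WT replicate 3 and lowest in ORP4L KI replicate 1, and the other 5 libraries lay between 1.12 and 1.57.

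Dnmt3a, the main de novo methyltransferase of blood cells, had 67.0, 58.9 and 82.2 CPM in WT, and 35.7, 72.4, 48.5 and 43.7 CPM in ORP4L KI. In ORP4L KI, 3 of 4 libraries lay below every WT library, and replicate 2 lay inside the WT range. The log2 fold change was -0.47 (SE 0.26, interval -1.05 to 0.11, quasi-likelihood adjusted p = 0.484 in edgeR). Without ORP4L KI replicate 2 it was -0.72, with an adjusted p of 0.142, the smallest that any regulator reached in 18 other settings of the processing. Dnmt3b had 7.08, 6.29 and 10.5 CPM in WT, and 7.06, 6.13, 7.41 and 6.03 CPM in ORP4L KI. Apart from WT replicate 3, all values of Dnmt3b lay within 6.03 to 7.41 CPM. Its log2 fold change was -0.26 (SE 0.26, interval -0.85 to 0.33, adjusted p = 0.761 by edgeR). The RPKM ratio of Dnmt3a to Dnmt3b was 4.32, 4.28 and 3.57 in WT, and 2.31, 5.40, 2.99 and 3.31 in ORP4L KI, so Dnmt3a led in every mouse and the groups overlapped.

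The TET genes shared 1 high library, WT replicate 3. Tet2, a brake on blood cell growth, had 47.8, 67.2 and 116.2 CPM in WT and 51.5, 83.5, 55.1 and 52.8 CPM in ORP4L KI. Tet3 had 53.9, 54.7 and 122.1 CPM in WT, and 61.4, 64.9, 52.2 and 38.1 CPM in ORP4L KI. Tet1 had only 32, 34 and 112 reads in WT and 55, 38, 40 and 26 reads in ORP4L KI, or 1.99, 2.14 and 7.87 CPM against 3.35, 2.08, 2.30 and 1.62 CPM. Each of the 3 genes was higher in WT replicate 3 than in any other library, and the 2 other WT libraries lay inside or near the ORP4L KI range. For Tet1, counting error alone gives an exact Poisson interval of 6.48 to 9.47 CPM in WT replicate 3 and of 1.36 to 2.81 CPM in WT replicate 1.

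The log2 fold changes were -0.34 for Tet2 (SE 0.31, interval -1.05 to 0.36, quasi-likelihood adjusted p = 0.721 in edgeR) and -0.50 for Tet3 (SE 0.32, interval -1.23 to 0.22, adjusted p = 0.572 by edgeR). Tet1 had -0.77 (SE 0.52, interval -1.94 to 0.41, adjusted p = 0.602 by edgeR), the widest interval of the 10. These lower estimates rested on 1 mouse. Without WT replicate 3 they became 0.08 for Tet2, 0.18 for Tet1 and -0.0023 for Tet3, and Dnmt3b likewise went to -0.0044. Tet2 and Tet3 were close in every mouse, with an RPKM ratio of 1.05, 1.46 and 1.13 in WT and 0.996, 1.53, 1.26 and 1.64 in ORP4L KI.

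In PRC2, Ezh2, the subunit of dividing cells, had 52.1, 51.6 and 42.1 CPM in WT, and 61.8, 56.4, 48.0 and 39.4 CPM in ORP4L KI. The ORP4L KI values spanned the whole WT range on both sides. The log2 fold change was 0.08 (SE 0.21, interval -0.38 to 0.55, quasi-likelihood adjusted p = 0.921 in edgeR), or 0.766 to 1.46-fold. Ezh1, the subunit typical of resting cells, had 54.7, 38.9 and 62.9 CPM in WT, and 29.9, 55.3, 48.8 and 39.5 CPM in ORP4L KI. Only ORP4L KI replicate 1 lay below the WT range. Its log2 fold change was -0.27 (SE 0.26, interval -0.84 to 0.31, adjusted p = 0.743 by edgeR).

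The balance of the 2 subunits set 1 library apart. Ezh2 exceeded Ezh1 in all 7 libraries, with an RPKM ratio of 1.52, 2.12 and 1.07 in WT, and 3.29, 1.63, 1.57 and 1.59 in ORP4L KI. Replicates 2 to 4 of ORP4L KI lay inside the WT range, and replicate 1, where Ezh2 was highest and Ezh1 lowest of the 7, lay above it. The group means were 1.57 ± 0.527 (SD, n = 3) in WT and 2.02 ± 0.849 (SD, n = 4) in ORP4L KI.

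Asxl1 had 129.9, 114.3 and 195.4 CPM in WT, and 98.1, 194.6, 148.2 and 164.9 CPM in ORP4L KI. High and low values occurred in both groups, with WT replicate 3 and ORP4L KI replicate 2 nearly level at the top and ORP4L KI replicate 1 at the bottom. The log2 fold change was 0.05 (SE 0.28, interval -0.58 to 0.68, quasi-likelihood adjusted p = 0.964 in edgeR).

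**Figure D2:**
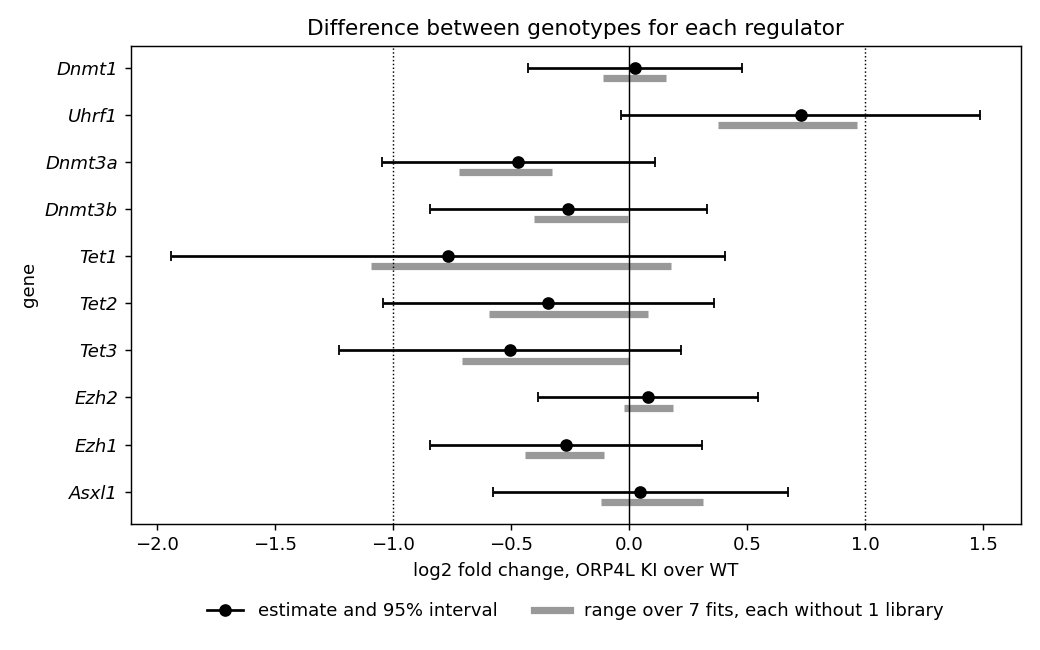
Log2 fold change (ORP4L KI over WT) of each regulator with its 95% interval (black), and the range of the estimate when each of the 7 libraries was left out in turn (grey). Dotted lines mark a 2-fold difference; every interval crosses 0, and the grey bars of Dnmt1, Tet1, Tet2, Ezh2 and Asxl1 do so too.

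The spread between mice of a group was mostly far above counting error. The coefficient of variation (CV) of Dnmt1 was 15.2% in WT and 16.8% in ORP4L KI, where counting error alone gives 2.63% and 2.46%. For Tet1 it was 83.8% in WT against 12.98% from counting. Dnmt3b in ORP4L KI was the exception, with a CV of 10.2% against 9.39% from counting. Of the 10 regulators, 7 had their highest level in WT replicate 3, where 18.2% of all tested genes peaked, and 7 had their lowest in ORP4L KI replicate 1 or 4, where 28.1% and 11.9% of all genes were lowest.

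Genes whose profile over the 7 libraries lay nearest to the most variable regulators were picked by the root mean square distance of centred log2 CPM among 9188 genes with a mean log2 CPM of at least 3. For Uhrf1 these were Chaf1a, a chromatin assembly factor of replication forks, at a distance of 0.0856, then Ccne1, a cyclin of S-phase entry, at 0.107 and Bub1b, a mitotic checkpoint kinase, at 0.108. Chaf1a had 23.5, 16.98 and 11.4 CPM in WT, and 42.1, 19.8, 21.4 and 20.9 CPM in ORP4L KI, the same peak in ORP4L KI replicate 1 and low in WT replicate 3 as Uhrf1. Chaf1a is also among the 20 S-phase genes set beside Uhrf1 below, so the 2 comparisons are not separate. For Tet1 the nearest gene was Tet3 at 0.297, then Wdr92 at 0.331 and Zdhhc17 at 0.342. For Tet3 they were Naip6 at 0.138, Usf3 at 0.156 and Lrrc8b at 0.157. All 6 genes named beside Tet1 and Tet3 peaked in WT replicate 3.

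Because Uhrf1, Dnmt1 and Ezh2 are used by dividing cells, they were set beside 20 S-phase genes, none of them a regulator of the set. These genes summed to 1344, 1198 and 937.7 CPM in WT and to 2377, 1466, 1531 and 1604 CPM in ORP4L KI. All 20 had higher estimates in ORP4L KI (median log2 fold change 0.57), and the median was 0.42 without ORP4L KI replicate 1. The order of the 4 ORP4L KI libraries in this sum was also that of their granulocyte marker sums. These granulocyte sums were 142547, 10175, 30468 and 52260 CPM in replicates 1 to 4. Uhrf1 had another order, with 95.7, 44.1, 50.03 and 42.9 CPM in the same replicates. The part of granulocytes in the S-phase genes and in Uhrf1 was not tested. Of the 20, 8 had groups that did not overlap, against 13.8% of all genes, and 1, Rrm2, was called higher, against 2.38%, by p and fold (log2 fold change 1.69, quasi-likelihood adjusted p = 0.163 in edgeR), a call lost without any 1 of the 3 WT libraries. By adjusted p the quasi-likelihood test called 0 of the 20 (7 at an unadjusted p under 0.05), limma-voom 0, the likelihood ratio test 1 and DESeq2's Wald test 3. Uhrf1 and the S-phase sum were both highest in ORP4L KI replicate 1 and lowest in WT replicate 3. Between these libraries their orders differed. ORP4L KI replicate 4, at 1604 CPM in the sum, had less Uhrf1 (42.9 CPM) than WT replicate 1 (45.9 CPM), at 1344 CPM. Per 1000 S-phase reads Uhrf1 had 34.2, 29.4 and 25.9 reads in WT, and 40.3, 30.1, 32.7 and 26.8 reads in ORP4L KI, which overlapped widely. Dnmt1 did not follow the S-phase sum, with 66.5, 69.8 and 118.3 reads per 1000 in WT and 35.3, 81.2, 63.0 and 53.4 in ORP4L KI. By this measure Dnmt1 was lowest in the library richest in S-phase genes.

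Ezh2 per 1000 S-phase reads was the 1 measure of the 3 whose groups did not overlap. It was 38.7, 43.1 and 44.9 in WT and 26.0, 38.4, 31.4 and 24.6 in ORP4L KI, so every ORP4L KI library was lower, replicate 2 by little. Of all tested genes, 33.1% were lower and not overlapping by the same measure, and the S-phase sum that serves as divisor was itself higher in every ORP4L KI library.

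**Figure D3:**
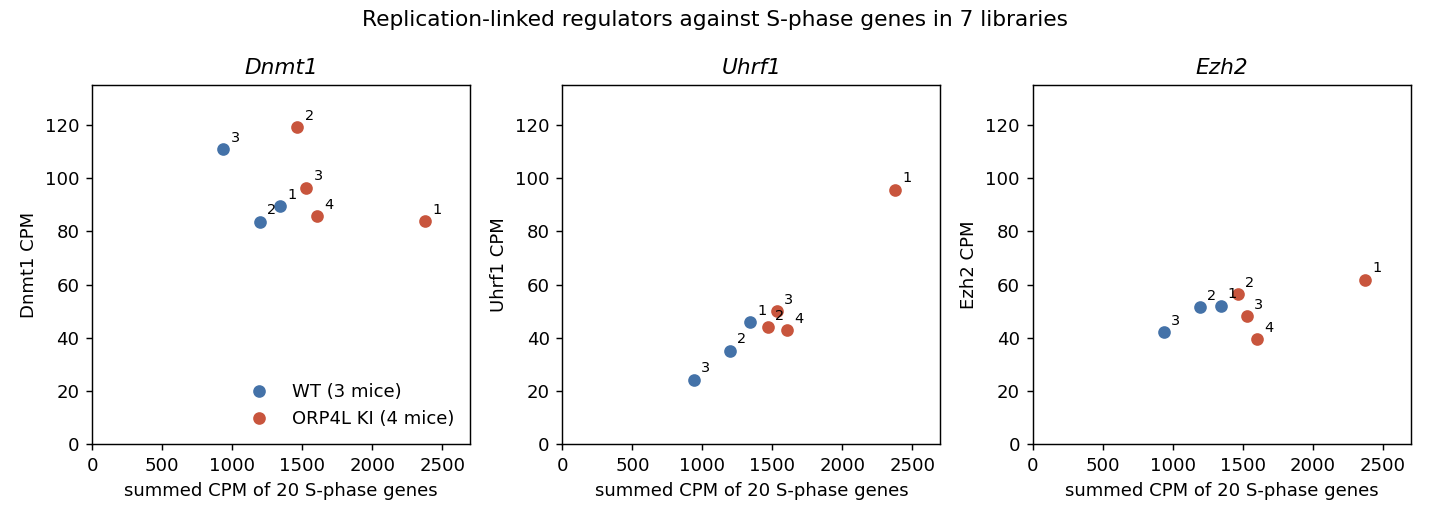
CPM of Dnmt1, Uhrf1 and Ezh2 against the summed CPM of 20 S-phase genes in the 7 libraries, numbered by replicate. Uhrf1 goes from 24.3 CPM in WT replicate 3 to 95.7 CPM in ORP4L KI replicate 1. These libraries also have the lowest and the highest S-phase sum. Dnmt1 stays between 83.6 and 119.0 CPM.

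The wider pathways were described with 9 lists of 100 genes, the regulators included. Of these, 97 were tested, 52 with higher and 45 with lower estimates in ORP4L KI and a median log2 fold change of 0.02. By p and fold, 3 of the 97 were called higher, where 2.38% of all genes were. Dnmt3l is among these 3, and it passed the filter on low counts only through its ORP4L KI reads. In the other direction 0 were called, where 2.3% of all genes were called lower. By adjusted p edgeR's quasi-likelihood test called 0, with 9 at an unadjusted p under 0.05, limma-voom called 0, and DESeq2's Wald test and the likelihood ratio test called 5 each, namely Dnmt3l, Neil3, Pcgf2, Cxxc5 and Phc1. The groups did not overlap for 10 of the 97, 7 higher and 3 lower, against 13.8% of all genes. Cxxc4 and Asxl3 had too few reads to test, and Ezhip was not analysed here.

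The genes called higher belong to 3 different lists. Pcgf2, a PRC1 subunit also known as Mel18, had 5.53, 5.91 and 4.71 CPM in WT, and 12.4, 11.7, 13.5 and 10.6 CPM in ORP4L KI. All 4 ORP4L KI libraries lay above all WT libraries, with little spread in either group (log2 fold change 1.16, SE 0.23, quasi-likelihood adjusted p = 0.0680 in edgeR), and it was called by p and fold in all 18 other settings. Neil3, a glycosylase that opens base excision repair of oxidized bases, had 4.91, 4.03 and 3.44 CPM in WT, and 28.1, 7.67, 10.4 and 11.4 CPM in ORP4L KI (log2 fold change 1.80, SE 0.46, adjusted p = 0.114 by edgeR). It lost this call without WT replicate 2 and without WT replicate 3.

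Dnmt3l, the catalytically inactive partner of Dnmt3a and Dnmt3b known from germ cells, had 0, 0 and 2 reads in WT, and 36, 5, 11 and 22 reads in ORP4L KI. The ratio of pooled CPM was 25.1, with an exact 95% interval of 6.71 to 211.1 that covers counting error only. Dnmt3l was called in 10 of the 12 other settings that tested it, not without WT replicate 1 or 2. Where a filter on low counts was used, it entered the test only through its ORP4L KI reads. These calls are therefore no separate support for a difference. In 6 settings, among them the fit without ORP4L KI replicate 1, it did not pass the filter on low counts. The order of the 4 ORP4L KI libraries for Dnmt3l and for Neil3 was again that of their granulocyte marker sums. The part of those cells in both genes was not tested.

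**Figure D4:**
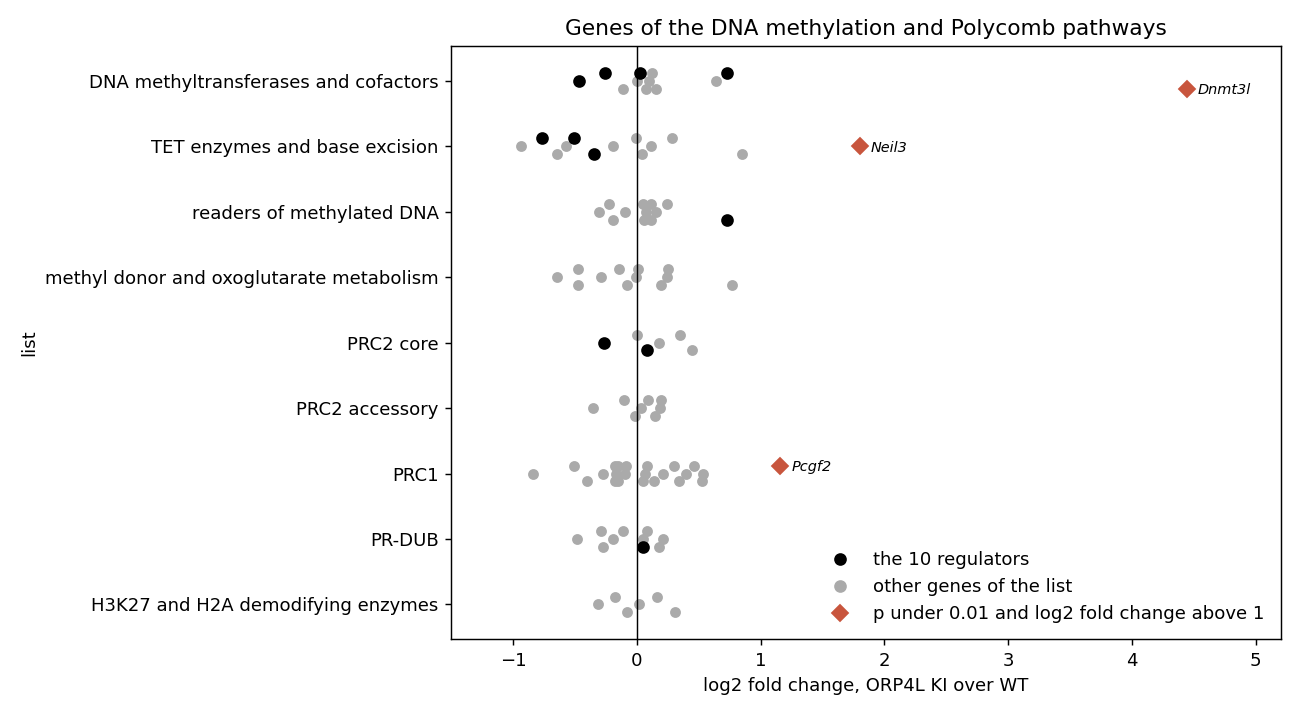
Log2 fold change (ORP4L KI over WT) of each tested gene in 9 pathway lists, with the regulators in black and the genes called by p and fold as red diamonds. Most genes lie within a log2 fold change of 1 on both sides of 0; the value of Dnmt3l rests on 2 WT reads.

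The lists showed no common direction. Among DNA methyltransferases and cofactors, 9 of 12 estimates were higher (median 0.09), and among TET enzymes and base excision genes 8 of 13 were lower (median -0.19). Cxxc5, a CXXC-domain protein that binds unmethylated CpG, was the lowest of the latter, with 20.1, 13.2 and 14.2 CPM in WT and 7.91, 9.04, 7.81 and 8.40 CPM in ORP4L KI. Its groups did not overlap (log2 fold change -0.93, SE 0.23, quasi-likelihood adjusted p = 0.102 in edgeR), short of the fold threshold. It passed p and fold with upper-quartile scaling, with total counts and without WT replicate 2 or 3. Readers of methylated DNA had 8 of 12 higher estimates (median 0.07), and Uhrf1 had the largest log2 fold change among them in size. In methyl donor and oxoglutarate metabolism, 5 of 12 were higher (median -0.05). There Idh1, which makes the oxoglutarate that TET enzymes use, had 0.76 through ORP4L KI replicate 1 alone, at 68.8 CPM against 13.4 to 20.2 CPM in the other 6 libraries.

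Of the PRC2 core, 4 of 6 estimates were higher (median 0.13). Eed, the subunit that reads the K27 mark, had 48.5, 49.8 and 51.1 CPM in WT, and 70.1, 72.6, 61.5 and 66.9 CPM in ORP4L KI. Every ORP4L KI library exceeded every WT library, yet the gene did not pass either rule (log2 fold change 0.44, SE 0.16, quasi-likelihood adjusted p = 0.260 in edgeR). Rbbp4, a histone chaperone also found in other complexes, had 0.35, with 281.4 CPM in ORP4L KI replicate 1 and 136.6 to 160.9 CPM elsewhere. PRC2 accessory genes had 5 of 8 higher (median 0.06), with Phf19 at -0.35 and Lcor at 0.19.

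PRC1 had 12 higher and 11 lower estimates of 23 (median 0.05). Besides Pcgf2, its largest value was that of Phc1, a scaffold subunit, with 32.5, 39.9 and 38.2 CPM in WT and 13.8, 23.6, 20.1 and 24.8 CPM in ORP4L KI. All ORP4L KI values lay below all WT values (log2 fold change -0.84, SE 0.23, quasi-likelihood adjusted p = 0.140 in edgeR). In PR-DUB, 5 of 10 were higher (median -0.03). Asxl2, the relative of Asxl1, had -0.49 and Ogt, a sugar transferase bound to this complex, had -0.29, both highest in WT replicate 3. Enzymes that remove the K27 or H2A marks had 3 of 6 higher (median -0.03), with Usp21 at -0.31 and Kdm6a, the X-linked K27 demethylase, at 0.31. Mbd2, Neil1, Tdg and Yaf2 also had groups that did not overlap, a choice made after their values were seen, with log2 fold changes of 0.24, -0.58, 0.28 and 0.53 and adjusted p of 0.635, 0.254, 0.559 and 0.242 by edgeR.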

How the data were processed

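The 10 genes and the gene lists were chosen with earlier results of these data known. Libraries were prepared from Trizol RNA (VAHTS mRNA-seq V3 kit) and read on an Illumina NovaSeq 6000. FANSe3 served the authors to align adapter-free reads of at least 17 nt to mouse mRNA sequences (mm10 in the submitters' notes). They deposited a raw read count per gene, summed over its splice variants, and its RPKM by the longest transcript. Multi-mapping settings and the strand of counting are not given in the sources used here, so counts of close paralogs and overlapping genes are uncertain.

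Counts were tested in R 4.3.3 with edgeR 4.0.16: filterByExpr (minimum count 10, total 15), TMM scaling, quasi-likelihood test, no covariate, all 7 libraries, Benjamini-Hochberg adjustment over 13462 genes. Groups came from the genotype labels, with 1 mouse per library. The standard error was the log2 fold change divided by the square root of F. RPKM served only for levels and ratios between genes, without a test. Named were the 10 regulators, in each list the called genes and the 2 largest fold changes, and the 3 genes nearest in profile to the 3 most variable regulators. Other genes, among them Osbp2, Rrm2 and pathway genes whose groups did not overlap, were chosen outside this rule. Of the genes covered by the rule, 2 are not reported here. Alternatives were DESeq2 1.42.0 (size factors, Wald test), upper-quartile and total-count scaling, 2 other filters, the likelihood ratio test, limma 3.58.1 voom, the replicate block, each library left out, thinned counts and, chosen after seeing the data, a term for Xist or Ddx3y reads. The tests were tested on simulated data. No 2 libraries agreed within sampling noise. Tables and figures used SciPy 1.17.1 and pandas 2.3.3 under Python 3.11.15, with Matplotlib 3.10.9. Intervals from counts cover counting error only.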

Additional observations from a re-analysis of the deposited data

Results flagged for a closer look

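In the group of 4 ORP4L KI libraries, a library standing farther from the rest than Dixon's 95% critical value was found for 9 of 38 values examined. Chance flags about 1 in 20 independent values, but these share the same libraries and many were named for a large difference, so the 2 shares are not comparable. Groups of 3 were not examined. Of the regulators, Uhrf1 stood apart in replicate 1, with 95.7 CPM against 42.9 to 50.03 CPM in the others, and Tet2 in replicate 2, with 83.5 CPM against 51.5 to 55.1 CPM. The RPKM ratio of Ezh2 to Ezh1 was 3.29 in replicate 1 and 1.57 to 1.63 in the others. Replicate 1 also stood apart for Idh1 (68.8 CPM against 13.4 to 17.7), Rbbp4 (281.4 CPM against 145.5 to 160.9) and Yaf2 (49.8 CPM against 36.7 to 38.4). This library had the most granulocyte marker reads (142547 CPM) and the fewest T-cell marker reads (1923 CPM), and their part in these values was not tested.

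Replicate 2 stood apart for Ogt (185.4 CPM against 129.9 to 135.4), Kdm6a (129.65 CPM against 48.8 to 61.8) and Lcor (6.57 CPM against 5.80 to 5.85). It had the most reads of Xist, 650.6 CPM, and Kdm6a and Ogt are X-linked genes. WT replicate 1 (372.7 CPM) and ORP4L KI replicate 1 (391.5 CPM) also had high Xist. The other 4 libraries had 15.7 to 22.3 CPM, so libraries with high and with low Xist occurred in both groups. Ogt was highest in WT replicate 3, at 248.9 CPM, and lowest in ORP4L KI replicate 1. Kdm6a had 77.5 CPM in WT replicate 3, against 65.5 CPM in WT replicate 1 and 61.8 CPM in ORP4L KI replicate 1. A link between Xist and these values was not tested.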

How the results depend on the processing

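In 18 other settings, 0 of the 10 regulators were called by either rule, and 163 of 180 of their log2 fold changes kept their direction. The 17 that reversed belonged to Dnmt1, Ezh2, Asxl1, Tet1 and Tet2. With upper-quartile scaling Dnmt1 had -0.036 and Asxl1 -0.0060. With total counts, which moved the median of all genes by -0.14 and left 40.3% of p and fold calls higher against 50.8% with TMM, Dnmt1 had -0.11, Ezh2 -0.062 and Asxl1 -0.079. Leaving out each library in turn gave -0.11 to 0.15 for Dnmt1, -0.12 to 0.31 for Asxl1, -0.023 to 0.19 for Ezh2, -1.09 to 0.18 for Tet1 and -0.60 to 0.079 for Tet2. Dnmt3a ranged from -0.72 to -0.33, Dnmt3b from -0.40 to -0.0044, Ezh1 from -0.44 to -0.11, Tet3 from -0.71 to -0.0023 and Uhrf1 from 0.38 to 0.97. The reversals of Tet1 and Tet2 came without WT replicate 3.

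Replicate numbers 1 to 3 occur in both groups, but same-numbered libraries did not deviate together (correlation across genes 0.15, -0.53 and -0.0018). Cell content, such as the granulocyte marker reads, also differed between libraries of a group. These correlations therefore cannot tell whether the numbers pair the mice. With the replicate block, without ORP4L KI replicate 4, Asxl1 had -0.022 and 48 genes had an adjusted p under 0.05, with 466 past p and fold.

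The count of all genes at an adjusted p under 0.05 was 3 and depended strongly on the setting. It was 44 with upper-quartile scaling, 113 with total counts, 176 without a filter, 784 by DESeq2's Wald test and 706 by the likelihood ratio test. It was 0 with a minimum of 10 counts per library (1549 at an unadjusted p under 0.05), 0 by limma-voom (1751) and 0 with a term for Xist or Ddx3y reads (1544), and 0 to 342 with each library left out, 342 without ORP4L KI replicate 2. By p and fold, 630 became 328 to 805 with each library left out, 328 without WT replicate 2. The share of these calls that were higher was 40.3% with voom, 33.2% without WT replicate 3 and 60.5% without ORP4L KI replicate 2. The cause was not tested. Depth bears on Dnmt3l, which rests on 2 WT reads.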
